A study of Mus musculus with 8 samples.

Results

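Nascent RNA of a mouse embryonic stem cell line that expresses a mutated CTCF was compared with that of the untreated control line. The comparison uses 4 of the 8 libraries of the series, 2 replicates of each of 2 groups, chosen by their sample titles. All lines are E14 embryonic stem cells whose own CTCF carries an auxin-inducible degron (AID), a tag that lets the auxin IAA trigger destruction of the protein. The untreated group is the control overexpression line without IAA. The other group is the overexpression line of mutated CTCF after 12 h of IAA; the labels do not name the mutation. The 2 remaining groups, also with 2 libraries each, are the control line and the line with wild-type CTCF, both after 12 h of IAA. Cells grew in serum-free medium with LIF, PD0325901 and CHIR99021, so inhibitors of MEK and GSK3 were present in every group. The mutated form came in a line of its own, and the labels do not say whether that line is 1 clone. Effects of the line, of IAA and of the mutated CTCF cannot be told apart in this comparison. Nothing in the labels says that replicates came from separate cultures, so p-values rest on the spread between libraries of a group, which may be technical. In the main fit that spread was pooled over all 4 groups and drawn towards a trend with level shared by all genes. The p-values and standard errors therefore do not rest on the 4 compared libraries alone.

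CTCF is a zinc-finger protein that binds DNA at many sites and halts cohesin, the ring complex that extrudes chromatin loops. Loops anchored by CTCF bring enhancers and promoters together or keep them apart. Transient transcriptome sequencing (TT-seq) marks RNA made during a short pulse of 4-thiouridine, here 400 µM for 15 min in every library, so its values follow synthesis of RNA more than its store in the cell.

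The libraries held 18247323 to 21372946 reads in the 2 groups compared, and values are reads per gene divided by 1 factor per library ("normalized reads"). Embryonic stem cell markers were abundant: the summed level of 9 of 9 markers was 52290 and 53250 normalized reads in the untreated libraries and 59520 and 62400 with mutated CTCF. Of 8 primitive endoderm markers 5 were listed, with sums of 4151 and 4221 untreated and 4856 and 5040 with mutated CTCF, nearly all from Lama1. Sums were 174.0 to 182.8 for 4 of 7 mesoderm markers in the 4 libraries and 15.82 to 29.25 for 3 of 6 trophectoderm markers. Neuroectoderm markers, 2 of 7 listed, summed to 156.3 and 158.6 untreated and 273.8 and 284.2 with mutated CTCF, nearly all from Nes. Of 5 tested genes of a neuroectoderm list 1 was called higher and 1 lower, so these sums describe 1 gene more than a lineage.

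With mutated CTCF supplied, transcription remained away from the untreated level at many genes, mostly by small amounts. Of 15818 genes tested, 5975 (37.8%) passed an adjusted p of 0.05 in limma, 3801 higher (24.0%) and 2174 lower (13.7%). The split by direction depended on the scale of the libraries. It was 3801 to 2174 on the authors' scale, where the median log2 fold change of all genes was 0.05. It was 3138 to 2888 with recomputed median-of-ratios factors, and 2593 to 3421 when every library was set to the same total. Counts of a gene list on another scale are to be read beside these counts of all genes on that scale. Without untreated replicate 2 the lower calls numbered 1412. Changes of at least 2-fold were fewer and showed the opposite balance, with 212 genes higher (1.34%) and 329 lower (2.08%). The larger number was lower under each of the 3 scales, at 184 higher and 367 lower with median-of-ratios factors and 164 and 411 at the same total. Most of these changes lay at low levels: with a minimum mean of 50 normalized reads in place of 10, 72 were higher and 129 lower.

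**Figure D1:**
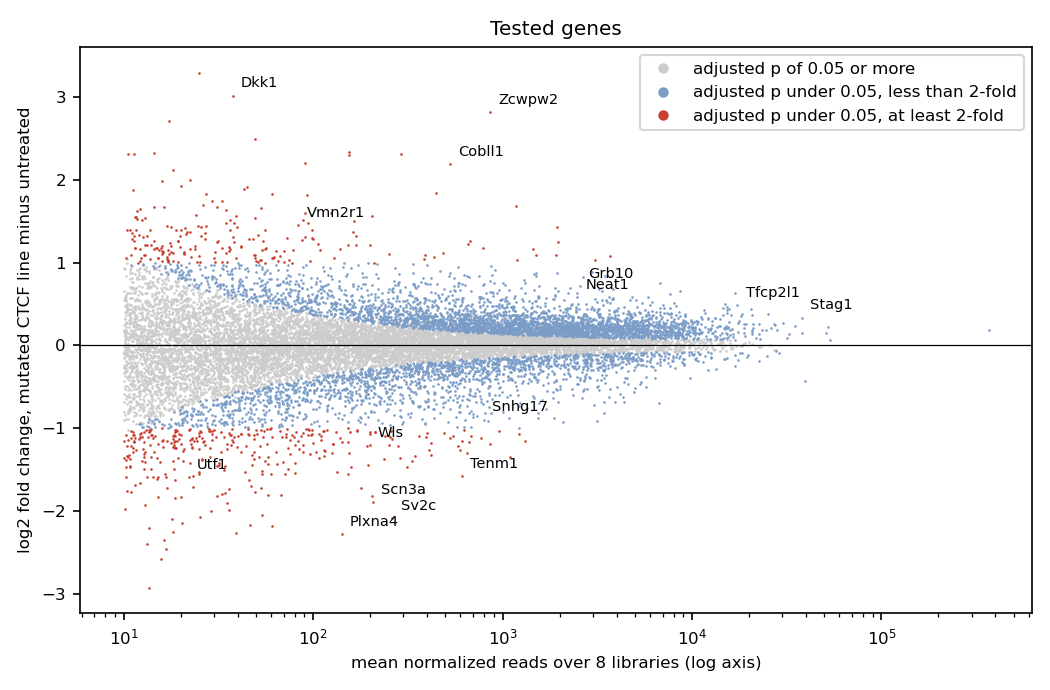
Log2 fold change of the mutated CTCF line minus the untreated control (vertical axis) against the mean normalized reads over the 8 libraries (horizontal log axis), 1 point per tested gene reported here. Red points were called at an adjusted p under 0.05 and at least 2-fold; the named points show that large changes reach from low genes such as Utf1 to Zcwpw2, while abundant genes such as Stag1 moved little.

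The genes that stood highest over the untreated level were mostly genes with little transcription there. Zcwpw2, annotated as a transcribed pseudogene of a zinc-finger histone reader (chr9:117876000-118040259, GRCm38), had 133 and 166 normalized reads in the untreated libraries and 1067 and 1051 with mutated CTCF. Its log2 fold change was 2.82 ± 0.07 (SE, n = 2 libraries a group, adjusted p = 2.83e-28). The groups did not overlap, and the level also lay between the 810 and 784 of the wild-type CTCF line and the 1402 and 1446 of the control line with IAA. Zdhhc19, a palmitoyltransferase, went from 75.2 and 76.7 to 379 and 383 normalized reads. Its log2 fold change was 2.31 ± 0.10 (adjusted p = 6.77e-21). Cobll1, a gene of a WH2-domain protein of the cytoskeleton, stood at 144 and 141 untreated and at 648 and 657 with mutated CTCF (log2 2.19 ± 0.08, adjusted p = 3.4e-24). In both genes the 2 mutated CTCF libraries lay above those of the wild-type CTCF line (216 and 190 for Zdhhc19, 422 and 392 for Cobll1) and below those of the control line with IAA (484 and 526, 923 and 911).

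A smaller set of these genes was raised much less than in the other IAA-treated groups. Pde4b, a phosphodiesterase that breaks down cyclic AMP, had 62.7 and 51.7 normalized reads untreated, 193 and 220.5 with mutated CTCF, 762 and 705 in the control line with IAA and 784 and 801 with wild-type CTCF. Its log2 fold change over the untreated level was 1.84 ± 0.10 (adjusted p = 2.3e-18), and its log2 difference from the wild-type CTCF line was -1.94 ± 0.10 (adjusted p = 7.5e-19). Cyp1a1, the cytochrome P450 that is the classical target of the aryl hydrocarbon receptor, had 9.19 and 9.48 untreated and 29.3 and 31.6 with mutated CTCF. It reached 161 and 144 in the control line with IAA and 292 and 313 with wild-type CTCF. Over the untreated level it was higher by 1.60 ± 0.18 (adjusted p = 2.95e-09). Of the 6 tested genes of the receptor's list, 3 rose (50%, against 24.0% of all genes) and 1 fell (16.7%, near the 13.7% of all genes), or 2 fell on both other scales. Ahrr, its repressor, had 38.4 and 47.4 normalized reads untreated and 64.8 and 73.2 with mutated CTCF (log2 0.68 ± 0.14, adjusted p = 0.00022), against 192 and 209 in the control line with IAA and 268 and 280 with wild-type CTCF. Arnt, the receptor's partner, differed by 0.21 ± 0.04 and Tiparp, a poly-ADP-ribose polymerase that the receptor induces, by -0.26 ± 0.04; Tiparp overlaps another listed gene.

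The other genes among the 12 highest held log2 fold changes of 1.66 to 2.33. They were Nmbr (neuromedin B receptor), Serpinb9 (a granzyme inhibitor), Sstr2 (somatostatin receptor), Pdgfra (a platelet-derived growth factor receptor), the lincRNAs Gm37933 and Gm13832, and the antisense gene Gm38250. Nmbr, Sstr2, Gm38250 and Gm13832 overlap another listed gene, and whether counting used strand is not given in the sources used here, so their reads cannot be assigned with certainty. Pdgfra marks primitive endoderm and went from 15.9 and 22.4 to 61.6 and 62.3 normalized reads. Of the other listed markers of that lineage, Lama1 (0.24 ± 0.04) and Gata4 (0.39 ± 0.14, adjusted p = 0.0283) rose, Gata6 fell and Dab2 was not called (0.53 ± 0.39, adjusted p = 0.301). The call of Gata4 was lost on both other scales (adjusted p = 0.0547 and 0.0859), without untreated replicate 1 or 2 (adjusted p = 0.114 and 0.135) and without mutated CTCF replicate 1 (adjusted p = 0.178). Gata6 had 64.4 and 90.5 untreated and 39.7 and 47.5 with mutated CTCF (log2 -0.80 ± 0.21, adjusted p = 0.00211), a call lost without untreated replicate 2 (adjusted p = 0.119). These markers other than Pdgfra were named after their values were seen. Of 13 tested genes of the endoderm list 5 rose (38.5%, against 24.0% of all genes) and 5 fell (38.5%, against 13.7%). Changes of at least 2-fold were balanced, with 2 genes higher and 2 lower. On both other scales 3 rose and 6 fell. The part of other cell types in these values was not tested.

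**Figure D2:**
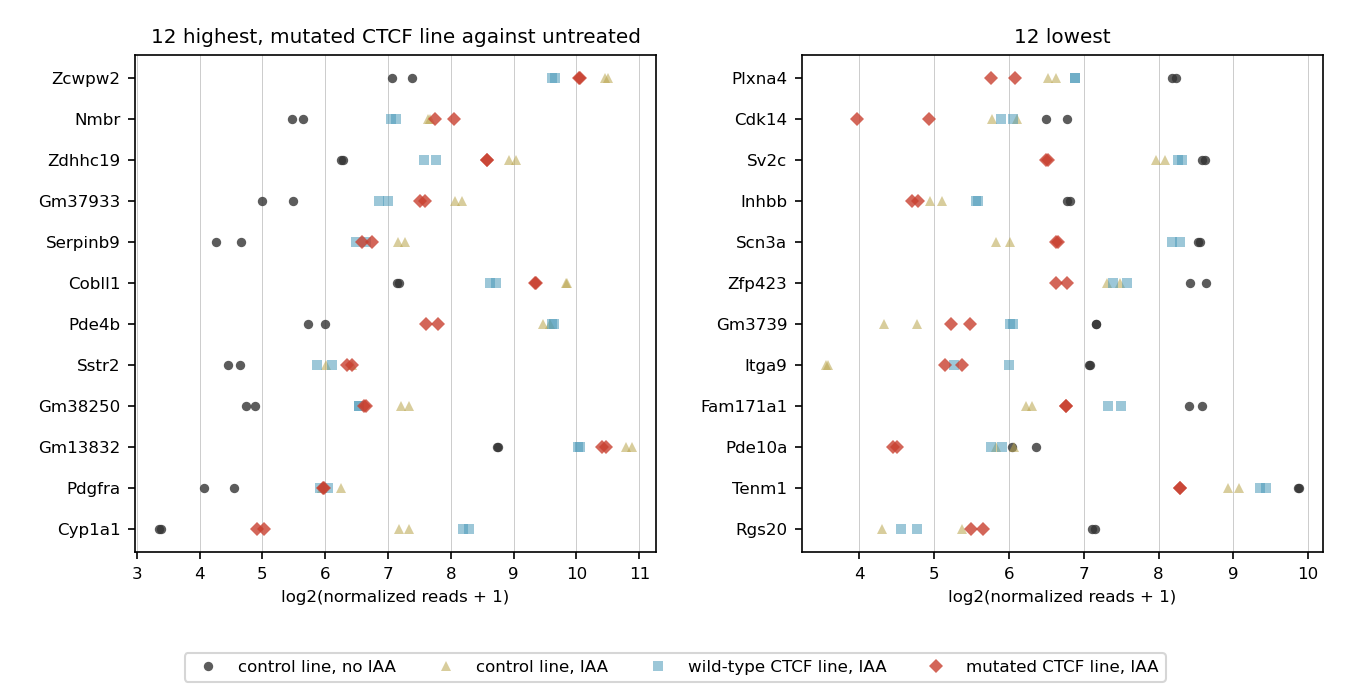
Log2 of normalized reads plus 1 (horizontal axis) in each of the 8 libraries for the 12 genes with the highest and the 12 with the lowest log2 fold change, mutated CTCF line against untreated control. In no gene shown do the 2 red diamonds (mutated CTCF) overlap the 2 dark circles (untreated); Pde4b and Cyp1a1 lie well below the other IAA-treated groups, and Sv2c and Pde10a lie below every other library.

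The 12 lowest genes encode proteins of varied kinds. Plxna4, a semaphorin receptor of axon guidance (chr6:32144268-32588192, GRCm38), fell from 288 and 300 normalized reads to 66.9 and 53.4 (log2 -2.28 ± 0.14, adjusted p = 1.48e-16). The control line with IAA had 97.7 and 91.3 and the wild-type CTCF line 117 and 117. The mutated CTCF libraries were thus the lowest of the 8. Sv2c, a synaptic vesicle protein, had 392 and 381 untreated and 90.9 and 89.0 with mutated CTCF (-2.09 ± 0.10, adjusted p = 8.85e-20). Scn3a, a sodium channel that overlaps another listed gene, had 374 and 367 untreated and 100 and 97.9 with mutated CTCF (-1.89 ± 0.12, adjusted p = 3.35e-16). Scn3a stood at 56.0 and 63.8 in the control line with IAA, below the mutated CTCF line (log2 difference 0.72, adjusted p = 8.05e-06). With wild-type CTCF it stood at 289 and 310, and the log2 difference of the mutated from the wild-type CTCF line was -1.58 ± 0.12 (adjusted p = 9.5e-14). Itga9, an integrin chain, is a gene at which the mutated CTCF line had moved part of the way from the control line with IAA. It had 133 and 134 untreated, 10.72 and 10.999 in the control line with IAA and 34.5 and 40.5 with mutated CTCF; its log2 fold change was -1.81 ± 0.23 against untreated (adjusted p = 4.63e-08) and 1.69 ± 0.23 against the control line with IAA (adjusted p = 2.8e-07). The other genes of the 12 were Cdk14 (a cyclin-dependent kinase), Inhbb (an activin subunit), Zfp423 (a zinc-finger transcription factor), Gm3739, Fam171a1, Pde10a (a phosphodiesterase), Tenm1 (teneurin, X chromosome) and Rgs20 (a regulator of G-protein signalling), with log2 fold changes of -1.56 to -2.19. Rgs20 overlaps another listed gene.

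Long genes were common among the large losses. With protein-coding genes split into 4 groups by gene length, 128 of the 3283 longest (3.90%), of 65610 bases or more, fell at least 2-fold, against 50 of the 3283 shortest (1.52%). At least 2-fold higher were 47 of the longest (1.43%) and 30 of the shortest (0.914%). Calls in either direction made up 56.0% of the longest and 27.3% of the shortest. In 4 groups by mean level such calls made up 22.5% of the lowest and 63.6% of the highest. In 4 groups by GC content, losses of at least 2-fold made up 3.08% of the lowest and 1.77% of the highest. Length, level and GC content were not separated here. Of 820 lincRNAs 41 (5.00%) were at least 2-fold higher, against 138 of 13130 protein-coding genes (1.05%), 14 of 649 antisense genes (2.16%) and 5 of 307 processed transcripts (1.63%). Transcribed processed pseudogenes gave 3 of 63 (4.76%). With protein-coding genes split into 4 groups by mean level, the share was 3.14% in the lowest group and 0.213% in the highest. The lincRNAs were not matched for level. Higher calls of any size were more common at high levels. In the highest group by mean level 1623 of 3283 genes were called higher and 464 lower, against 270 and 469 in the lowest. The gene lists were not matched for level either, so the share over all genes is an unmatched yardstick for lists of abundant genes. These classes were compared after the values were seen, with no test.

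Neighbouring genes moved together at some loci. Pramel7, Pramel6 and Olfr153 are consecutive tested genes at chr2:87489087-87533053 (GRCm38), and their log2 fold changes were -1.66 ± 0.41, -1.83 ± 0.35 and -1.42 ± 0.25. The Pramel genes belong to a leucine-rich repeat family of germ cells and early embryos. Pramel6 had 20.1 and 32.8 normalized reads untreated and 4.18 and 9.89 with mutated CTCF, and Pramel7 had 10.9 and 19.8 and then 5.22 and 2.97, so these 2 rest on few reads. In limma neither differed from untreated in the control line with IAA (adjusted p = 0.391 and 0.445) or with wild-type CTCF (adjusted p = 0.819 and 0.586). The call of Pramel7 was lost without untreated replicate 2 (adjusted p = 0.0633). A second run lay at chr5:5579278-5749326 with Cfap69 (a cilium protein) and Steap2 and Steap1 (members of the STEAP family). Steap2 fell from 142 and 137 to 53.3 and 49.4 (log2 -1.43 ± 0.17, adjusted p = 5.52e-09), and Cfap69 fell by 1.28 ± 0.17 on the log2 scale. Both genes were also low in the other IAA-treated groups. Steap2 had 65.5 and 64.9 in the control line with IAA and 62.9 and 67.4 with wild-type CTCF. Cfap69 had 61.9 and 73.7, and 58.6 and 68.5, beside 61.6 and 67.2 with mutated CTCF. Steap1 fell by 1.49 ± 0.42, a call lost without mutated CTCF replicate 2 (adjusted p = 0.197) or untreated replicate 1 (adjusted p = 0.086). The third run, at chr8:87460469-87959595, joined the lincRNA Gm2694 (-1.02 ± 0.14), 4933402J07Rik (-1.98 ± 0.47, lost without mutated CTCF replicate 1, adjusted p = 0.068) and Zfp423. Zfp423 had 398 and 342 untreated and 98.2 and 109 with mutated CTCF (-1.83 ± 0.12, adjusted p = 5.5e-16). The other IAA-treated libraries held 158 to 190 for this gene. Over all genes that overlap no other, the nearest neighbour of a gene at least 2-fold lower was itself called lower in 89 of 269 cases (33.1%), against 1505 of 11179 (13.5%) for any gene. For genes at least 2-fold higher the neighbour was called higher in 58 of 160 cases (36.2%), against 2804 (25.1%). The runs and their genes were chosen after the values were seen.

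CTCF itself prefers a long motif, and its core was searched as CCANNAGNNGGC on both strands of the RefSeq promoters (GRCm38.p6, 250 bases before to 50 after the start). Of the tested genes 10162 had a promoter within 1000 bases of their annotated start, and 284 (2.79%) held a match, as did 797 of all 32851 promoters of the table (2.43%). A match was found in 12 of 204 promoters (5.88%) of genes at least 2-fold lower and in 4 of 106 (3.77%) of genes at least 2-fold higher. Shares were 3.58% (51 of 1425) for all lower calls, 2.71% (70 of 2584) for all higher calls and 2.65% (163 of 6153) for genes not called. Genes that stood apart from all 3 other groups had 8 of 533 (1.5%) when higher and 9 of 417 (2.16%) when lower. These are descriptions of letters in a short window, without a test. With a mean of at least 50 normalized reads and a change of at least 2-fold, 4 of 120 promoters (3.33%) held a match. These 4 promoters are shown 5′ to 3′ on the gene's strand because their genes pass both limits with this core in the window. Promoters with a match at genes of lower mean are not shown. The match is in capitals, and in all but Fam199x the capitals are the motif's other strand.
Aox3: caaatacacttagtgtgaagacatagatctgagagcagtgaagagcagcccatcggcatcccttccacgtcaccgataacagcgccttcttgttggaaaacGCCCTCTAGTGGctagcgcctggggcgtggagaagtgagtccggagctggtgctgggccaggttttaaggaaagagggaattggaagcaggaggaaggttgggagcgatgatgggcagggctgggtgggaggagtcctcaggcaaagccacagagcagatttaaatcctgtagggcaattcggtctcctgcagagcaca
Lsm11: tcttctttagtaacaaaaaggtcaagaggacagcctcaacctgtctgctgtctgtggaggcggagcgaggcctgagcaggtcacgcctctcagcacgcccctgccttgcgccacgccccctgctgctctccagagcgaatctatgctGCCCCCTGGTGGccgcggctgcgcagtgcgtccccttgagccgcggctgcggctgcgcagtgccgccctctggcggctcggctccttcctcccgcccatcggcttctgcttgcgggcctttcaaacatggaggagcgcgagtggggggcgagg
Asz1: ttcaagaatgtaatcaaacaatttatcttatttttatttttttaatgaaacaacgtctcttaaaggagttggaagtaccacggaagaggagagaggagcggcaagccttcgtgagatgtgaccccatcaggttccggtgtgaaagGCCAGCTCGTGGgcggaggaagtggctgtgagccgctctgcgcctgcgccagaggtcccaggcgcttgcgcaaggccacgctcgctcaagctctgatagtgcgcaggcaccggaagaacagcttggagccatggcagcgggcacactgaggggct
Fam199x: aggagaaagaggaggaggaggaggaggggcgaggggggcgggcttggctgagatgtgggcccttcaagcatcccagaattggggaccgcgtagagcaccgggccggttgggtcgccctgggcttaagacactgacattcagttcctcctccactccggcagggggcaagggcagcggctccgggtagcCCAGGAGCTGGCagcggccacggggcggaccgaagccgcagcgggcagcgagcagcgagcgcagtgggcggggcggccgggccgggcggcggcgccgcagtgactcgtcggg

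These windows are chr1:58112886-58113185 (plus strand) for Aox3, chr11:45944886-45945185 (minus) for Lsm11, chr6:18109012-18109311 (minus) for Asz1 and chrX:137049344-137049643 (plus) for Fam199x. Aox3, an aldehyde oxidase, had 45.1 and 39.7 normalized reads untreated and 109 and 114 with mutated CTCF (log2 1.37 ± 0.13, adjusted p = 3.54e-11). The control line with IAA had 239 and 252 and the wild-type CTCF line 253 and 246. Lsm11, a component of the U7 particle that processes histone transcripts, went from 260 and 258 to 544 and 586 (1.12 ± 0.08, adjusted p = 2.74e-15); the other IAA-treated libraries held 516 to 616. Fam199x went from 478 and 510 to 196 and 230 (-1.21 ± 0.10, adjusted p = 1.77e-12), near the 182 and 184 of the control line with IAA. Asz1, a germ cell gene of the piRNA pathway, went from 65.2 and 70.7 to 30.3 and 19.8 (-1.43 ± 0.21, adjusted p = 4.5e-07), while every other IAA-treated library held 51.7 or more. The 4 genes were chosen after their values were seen.

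Most formative and primed pluripotency genes were lower, and naive genes moved in both directions. Naive pluripotency is the ground state that this medium maintains, and formative or primed genes mark the step towards differentiation. Of 15 tested formative and primed genes 11 fell (73.3%, against 13.7% of all genes) and 1 rose (6.7%, against 24.0%), a count that was the same on all 3 scales; the list's median log2 fold change was -0.30, against 0.05 for all genes. Without untreated replicate 2 the count that fell was 7. Lef1, a transcription factor of the Wnt pathway, had 257 and 262 normalized reads untreated and 138 and 152 with mutated CTCF (-0.84 ± 0.10, adjusted p = 7.7e-09). All other IAA-treated libraries, at 290 to 368, lay above the untreated ones, so the mutated CTCF line stood alone on the low side. Otx2, a homeobox factor of the epiblast, overlaps another listed gene and went from 79.4 and 65.5 to 38.7 and 44.5 (-0.78 ± 0.19, adjusted p = 0.00115). The riser was Dnmt3b, a DNA methyltransferase (0.26 ± 0.07), a call lost without untreated replicate 1 (adjusted p = 0.0776).

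Of 23 tested naive genes 9 rose (39.1%, against 24.0% of all genes) and 6 fell (26.1%, against 13.7%), and the direction of the majority turned to 6 and 8 when libraries were set to the same total. Tfcp2l1, a core factor of the naive network, had 13254 and 13623 untreated and 18223 and 19389 with mutated CTCF (log2 0.48 ± 0.03, adjusted p = 2.84e-15). It stood at the same height in the control line with IAA (18050 and 19112) and with wild-type CTCF (17837 and 19303). Klf4, another factor of the network, went from 1681 and 1595 to 2042 and 2141 (0.35 ± 0.05, adjusted p = 1.42e-07) and lay above all other libraries. Dppa2, a chromatin factor of early embryos, went the other way from 843 and 801 to 435 and 464 (-0.87 ± 0.07, adjusted p = 1.1e-13), below the 705 to 839 of the other IAA-treated libraries. Utf1, a low chromatin-associated gene, fell from 52.7 and 43.1 to 17.8 and 12.9 (-1.59 ± 0.33, adjusted p = 0.000155).

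**Figure D3:**
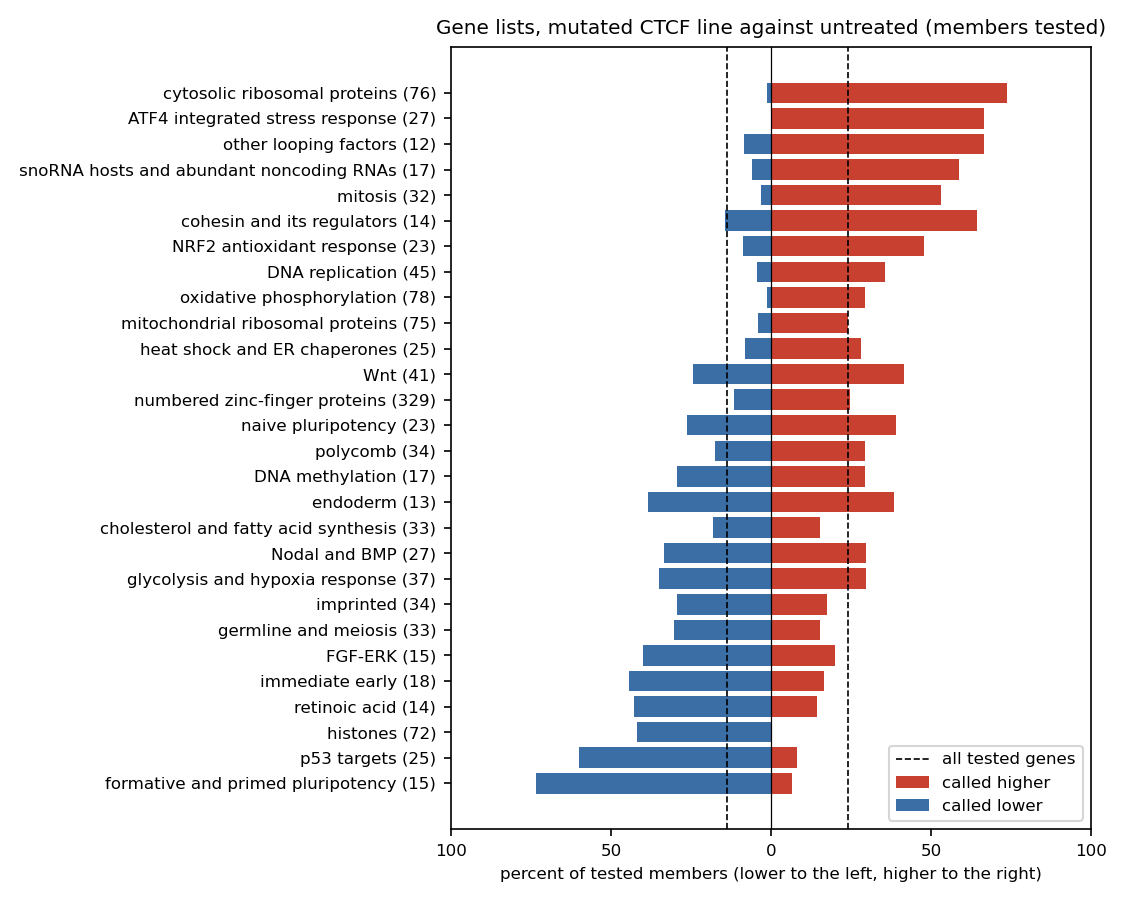
Percent of the tested members of each gene list (number tested in brackets; lists of at least 12) called higher, to the right, or lower, to the left, in the mutated CTCF line against untreated. Dashed lines mark all tested genes, 24.0% higher and 13.7% lower, and lists were not matched for level. Formative and p53 genes lie farthest to the lower side and cytosolic ribosomal protein, ATF4 and other looping genes farthest to the higher side.

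Wnt genes changed in both directions. Of 41 tested members 17 rose (41.5%, against 24.0% of all genes) and 10 fell (24.4%, against 13.7%), and 15 and 12 did so on both other scales. Dkk1, an antagonist that blocks the LRP co-receptors, had 3.34 and 3.45 normalized reads untreated and 28.2 and 42.5 with mutated CTCF (log2 3.02 ± 0.28, adjusted p = 1.35e-11). Levels were 70.3 and 57.2 in the control line with IAA and 43.7 and 52.4 with wild-type CTCF. Wif1, which binds Wnt ligands, went from 10.9 and 21.6 to 37.6 and 44.5 (1.36 ± 0.29, adjusted p = 0.00026). Sfrp2, a secreted decoy of frizzled receptors that overlaps another listed gene, went from 89.4 and 83.6 to 159 and 178 (0.95 ± 0.13, adjusted p = 1.3e-07).

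Among the 10 members that fell, 3 of them at least 2-fold, were 2 that act in ligand secretion. Ligand secretion was not tested as a group. Wls, the carrier of Wnt proteins to the cell surface, had 145 and 153 untreated and 60.6 and 68.2 with mutated CTCF (-1.20 ± 0.12, adjusted p = 1.2e-10). In the control line with IAA it stood at 262 and 238 and with wild-type CTCF at 306 and 356, both above the untreated level, and the log2 difference of the mutated from the wild-type CTCF line was -2.34 ± 0.12 (adjusted p = 9.09e-19). Porcn, the X-linked acyltransferase that lipidates Wnt proteins, went from 41.8 and 40.5 to 12.5 and 14.8 (-1.53 ± 0.23, adjusted p = 1.01e-06). Its levels were 50.03 and 48.4 in the control line with IAA and 62.9 and 80.2 with wild-type CTCF; the first of these groups did not pass the test against untreated (log2 0.25 ± 0.23, adjusted p = 0.419).

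Retinoic acid acts through nuclear receptors and induces Rarb and Stra8. Of 14 tested genes of the pathway 6 fell (42.9%, against 13.7% of all genes) and 2 rose (14.3%, against 24.0%), and 8 and 2 did so on both other scales. Rarb, a receptor that overlaps another listed gene, had 283 and 272 untreated and 171 and 160 with mutated CTCF (-0.74 ± 0.09, adjusted p = 5.2e-09), against 605 and 597 in the control line with IAA and 403 and 408 with wild-type CTCF. Stra8, the gatekeeper of meiosis, went from 365 and 397 to 235 and 220.5 (-0.74 ± 0.08, adjusted p = 5.6e-10), where the control line with IAA had 903 and 908. Both genes were therefore below the untreated level with mutated CTCF and above it in the control line with IAA. The 2 that rose were Aldh1a2, the enzyme that makes retinoic acid (24.2 and 21.6 to 50.2 and 54.4, 1.16 ± 0.21), and the receptor Rxra (0.33 ± 0.07).

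Of 33 germline and meiosis genes 10 fell (30.3%, against 13.7% of all genes) and 5 rose (15.2%, against 24.0%), and the 2 other scales gave 10 and 12 that fell and 5 that rose. Mael, a piRNA factor, went from 98.6 and 120 to 186 and 173 normalized reads (0.72 ± 0.15, adjusted p = 0.00011). Dmc1, the meiotic recombinase, had 1019 and 1012 untreated and 1248 and 1281 with mutated CTCF (0.32 ± 0.06, adjusted p = 2e-05), whereas the wild-type CTCF line held 688 and 729.

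More FGF signalling genes fell than rose on all 3 scales. FGF activates the kinase ERK, whose feedback phosphatases are the Dusp genes; a MEK inhibitor was in the medium of all groups. Of 15 tested genes 6 fell (40.0%, against 13.7% of all genes) and 3 rose (20.0%, near the 24.0% of all genes), and at the same total 9 fell and 1 rose. At that total more of all 15818 genes fell (3421) than rose (2593) as well. Dusp6 went from 125 and 136 to 52.2 and 51.4 (-1.31 ± 0.17, adjusted p = 6.9e-08), close to the 55.6 to 63.8 of the other IAA-treated libraries. Dusp4 went from 55.2 and 51.7 to 21.9 and 18.8 (-1.35 ± 0.27, adjusted p = 0.00011). Etv1, an ETS factor, rose from 2213 and 2192 to 3593 and 3466 (0.68 ± 0.04, adjusted p = 3.2e-17), as high as in the other IAA-treated libraries (3476 to 3709). The other risers, Fgfr2 (0.15 ± 0.04, overlapping another listed gene) and Etv5 (0.13 ± 0.03), were no longer called without mutated CTCF replicate 2 (adjusted p = 0.0762 and 0.0826), and Fgfr2 not without untreated replicate 1 either (adjusted p = 0.0915). Of 18 immediate early genes, which answer to growth factors within minutes, 8 fell (44.4%, against 13.7% of all genes) and 3 rose (16.7%, against 24.0%), though without untreated replicate 1 or 2 or mutated CTCF replicate 1 only 2, 3 or 4 fell. The risers were Myc (6.69 and 12.1 to 33.4 and 31.6, log2 1.74 ± 0.29), Fos (10.03 and 12.9 to 31.3 and 29.7, 1.34 ± 0.32) and Klf6 (1061 and 1079 to 1385 and 1388, 0.37 ± 0.05).

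Of 27 tested genes of Nodal and BMP signalling 9 fell (33.3%, against 13.7% of all genes). The 8 that rose were a share near that of all genes (29.6%, against 24.0%). On both other scales 12 fell and 7 rose. Fewer rose when untreated replicate 1 or mutated CTCF replicate 2 was left out. Inhbb, which forms activin B, went from 109 and 112 to 25.1 and 26.7 normalized reads (-2.05 ± 0.21, adjusted p = 1.75e-10). The control line with IAA had 33.4 and 29.7 and the wild-type CTCF line 46.3 and 47.1. Fst, the activin antagonist follistatin, fell as well (-0.83 ± 0.24, adjusted p = 0.0049, but 0.0628 in DESeq2), as did Smad6, an inhibitor inside the cell (-0.41 ± 0.06, adjusted p = 1.4e-06).

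**Figure D4:**
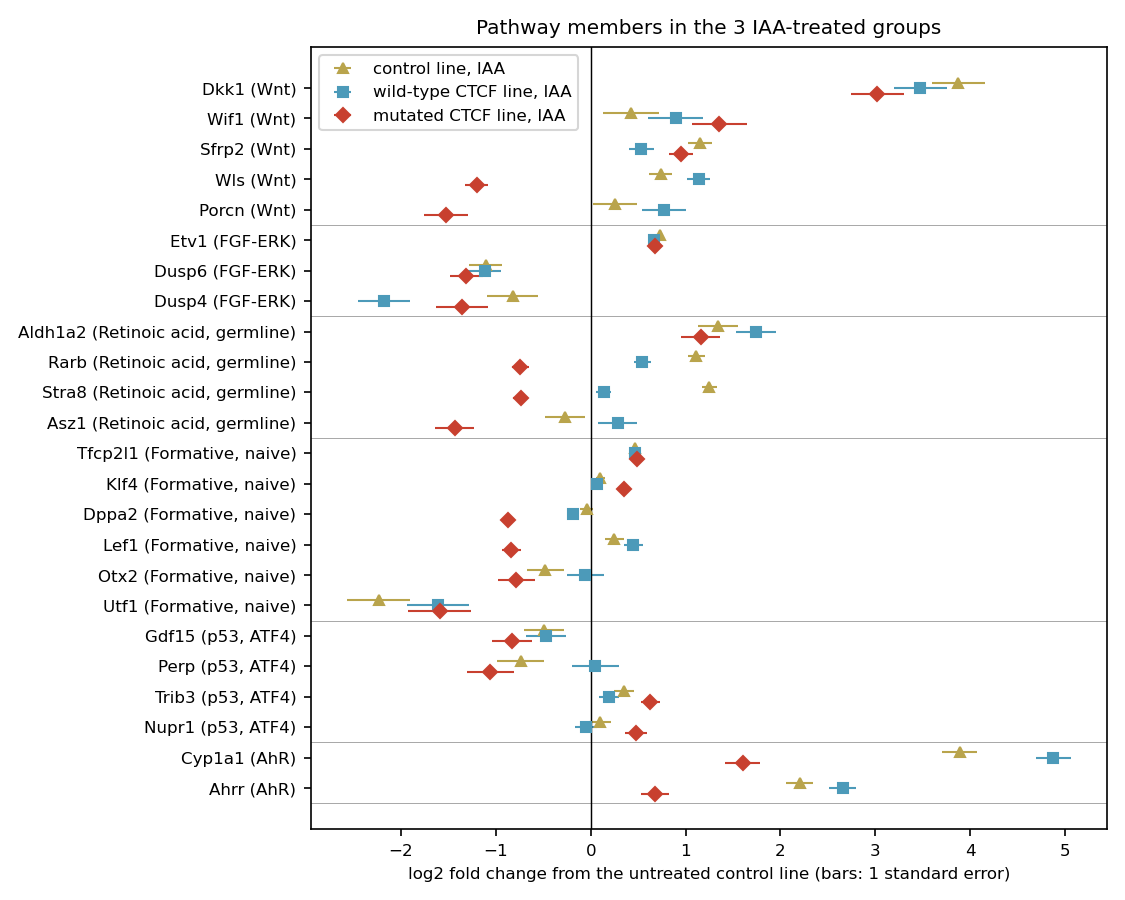
Log2 fold change from the untreated control line (horizontal axis, bars of 1 standard error, 2 libraries a group) of members of 6 pathways in the 3 IAA-treated groups, which share the untreated libraries. The standard errors come from the fit pooled over all groups, so a gene has the same bar in all 3 groups. Wls, Rarb and Lef1 lie to the left of 0 with mutated CTCF and to the right in the other groups; Etv1, Tfcp2l1 and Dusp6 lie together in all 3 groups.

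Targets of p53 were called lower more often than higher. This tumour suppressor switches on genes of cell cycle arrest and death. Of 25 tested targets 15 fell (60.0%, against 13.7% of all genes), 2 rose (8.0%, against 24.0%) and 8 did not pass the test, and 18 fell on both other scales; the median log2 fold change was -0.32. Perp, a membrane protein of cell death, had 45.1 and 47.4 normalized reads untreated and 25.1 and 18.8 with mutated CTCF (-1.06 ± 0.25, adjusted p = 0.000715), against 22.6 and 33.0 in the control line with IAA and 44.6 and 51.4 with wild-type CTCF; it was not called against the control line with IAA (adjusted p = 0.345). Gdf15, a stress cytokine, went from 70.2 and 61.2 to 34.5 and 38.6 (-0.83 ± 0.21, adjusted p = 0.0017). The sestrins Sesn1 (0.17 ± 0.04) and Sesn2 (0.18 ± 0.06), both small, were the 2 that rose; neither was called at the same total (adjusted p = 0.0504 and 0.145), and Sesn2 was not called without either untreated library (adjusted p = 0.0659 and 0.0708) or without mutated CTCF replicate 1 (adjusted p = 0.114).

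Targets of ATF4, the factor of the integrated stress response that raises amino acid synthesis and transport, went the other way. Of 27 tested, 18 rose (66.7%, against 24.0% of all genes) and none fell, with a median of 0.22; 15 rose with median-of-ratios factors, 11 at the same total and 10 without untreated replicate 1. Trib3, a pseudokinase, went from 197 and 177 to 288 and 291 (0.63 ± 0.11, adjusted p = 5.9e-06) and was the highest of all libraries. Nupr1, a small stress protein of chromatin, went from 179 and 188 to 246 and 266 (0.48 ± 0.11, adjusted p = 0.00083), also above every other library. Cytosolic ribosomal protein genes rose by small amounts, 56 of 76 (73.7%, against 24.0% of all genes) with 1 lower and a median of 0.21. That count was 51 with median-of-ratios factors, 41 at the same total and 20 without a mean-variance trend in the fit. Rpl39l, a paralogue of Rpl39, went from 415 and 433 to 654 and 642 (0.61 ± 0.08), and Rpl23a, which overlaps another listed gene, from 1697 and 1699 to 2285 and 2345 (0.45 ± 0.05). The lower gene was Rps27l, also a p53 target (-0.22 ± 0.07), which was not called without untreated replicate 1 or 2 (adjusted p = 0.0732 and 0.107) or mutated CTCF replicate 2 (adjusted p = 0.239).

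Of 72 tested histone genes 30 fell (41.7%, against 13.7% of all genes) and none rose, with a median log2 fold change of -0.23; 36 fell with median-of-ratios factors and 42 at the same total. Without untreated replicate 1 or 2, or mutated CTCF replicate 1, 19, 15 or 14 fell. Many histone genes are near-identical copies that can share reads, so single genes are uncertain. H1f4, a linker histone gene that overlaps another listed gene, had 492 and 490 normalized reads untreated and 313 and 322 with mutated CTCF (-0.63 ± 0.08, adjusted p = 7e-08), against 666 and 662 in the control line with IAA. Genes of mitosis showed no stable direction: 17 of 32 (53.1%, against 24.0% of all genes) rose and 1 fell on the authors' scale, and 4 rose and 6 fell at the same total; 5 rose without untreated replicate 1 or mutated CTCF replicate 2. DNA replication genes gave 16 higher (35.6%) and 2 lower of 45, 8 and 7 at the same total, and 10 higher without untreated replicate 1. Both mitochondrial lists had shares of higher genes near the 24.0% of all genes. Of 78 oxidative phosphorylation genes 23 (29.5%) rose and 1 fell (16 and 4 at the same total), and of 75 mitochondrial ribosomal protein genes 18 (24.0%) rose and 3 fell (9 and 6 at the same total, and 9 higher without untreated replicate 1).

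Genes of the loop machinery itself differed by small amounts. These lists were not matched for level. Of the 3283 protein-coding genes in the highest group by mean level, 1623 were called higher. Of 14 cohesin genes 9 rose (64.3%, against 24.0% of all genes) and 2 fell (14.3%, near the 13.7% of all genes), 6 and 4 at the same total, and 5 rose without untreated replicate 1. Stag1, a cohesin subunit, had 28799 and 29972 normalized reads untreated and 37278 and 36818 with mutated CTCF, higher on the log2 scale by 0.33 ± 0.02 (adjusted p = 3e-14). It was 45808 and 46632 in the control line with IAA and 39401 and 39102 with wild-type CTCF. The 2 that fell were Nipbl, the loader of cohesin (-0.15 ± 0.03, and -0.04 and not called once GC content and length were corrected for, adjusted p = 0.449), and Hdac8, its deacetylase, which overlaps another listed gene (-0.29 ± 0.06, adjusted p = 0.00018). Of 12 other looping factors 8 rose (66.7%) and 1 fell (8.3%), and 7 and 1 did so on both other scales. Chd4, a remodelling ATPase, went from 2270 and 2239 to 2854 and 2937 (0.36 ± 0.05), Patz1, a zinc-finger factor that overlaps another listed gene, rose by 0.37 ± 0.05, and Satb1 was the one lower (-0.19 ± 0.07, not called without untreated replicate 1 or 2 or mutated CTCF replicate 2, adjusted p = 0.0651, 0.157 and 0.157).

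Of 34 imprinted genes 6 rose (17.6%, below the 24.0% of all genes) and 10 fell (29.4%, against 13.7%); 14 and 15 fell on the 2 other scales and 6 without untreated replicate 2. Grb10, a growth-restraining adaptor, went from 1931 and 1944 to 3155 and 3206 normalized reads (0.71 ± 0.04, adjusted p = 5.6e-17), above the 2354 to 2815 of the other IAA-treated libraries. Kcnq1, a potassium channel gene that overlaps another listed gene, had 219.8 and 234 untreated, 225 to 233 in the other IAA-treated libraries and 373 and 407 with mutated CTCF (0.78 ± 0.10, adjusted p = 1.8e-08). Ppp1r9a, which encodes the actin-binding protein neurabin, fell from 845 and 895 to 492 and 466 (-0.86 ± 0.07, adjusted p = 6.6e-13). Neat1, the RNA that builds paraspeckles, had 2211 and 2187 untreated, 2118 to 2264 in the other IAA-treated libraries and 3276 and 3326 with mutated CTCF (0.59 ± 0.04, adjusted p = 3.1e-14). At Kcnq1 and Neat1 the mutated CTCF libraries lay above all 6 others. Snhg17, a snoRNA host gene, was 1340 and 1316 untreated, 154 and 180 in the control line with IAA, 953 and 983 with wild-type CTCF and 732 and 694 with mutated CTCF (-0.90 ± 0.07 against untreated, adjusted p = 2.4e-13).

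Further lists are given with their counts on the authors' scale, where 24.0% of all genes were higher and 13.7% lower. At the same total 2593 of all 15818 genes were higher and 3421 lower. NRF2 antioxidant genes gave 11 of 23 higher (47.8%) and 2 lower (8.7%), with 5 higher at the same total or without mutated CTCF replicate 2. Heat shock and chaperone genes gave 7 of 25 higher and 2 lower, 5 and 7 at the same total, and 4 higher without untreated replicate 1 or mutated CTCF replicate 2; Hsp90ab1, an abundant chaperone, rose from 11538 and 11169 to 15665 and 16491 (0.50 ± 0.03). Glycolysis genes gave 11 of 37 higher and 13 lower, with 19 lower at the same total, 6 higher without mutated CTCF replicate 2 and 8 lower without untreated replicate 2. Slc2a1, the glucose transporter, which overlaps another listed gene, went from 1822 and 1722 to 1231 and 1322 (-0.47 ± 0.05). Cholesterol and fatty acid genes gave 5 of 33 higher and 6 lower, 2 and 14 at the same total, and 1 or 2 higher without untreated replicate 1 or mutated CTCF replicate 2. Polycomb genes gave 10 of 34 higher and 6 lower, 9 and 12 at the same total; Aebp2, a subunit of polycomb repressive complex 2, went from 5793 and 5826 to 4527 and 4391 (-0.38 ± 0.03, adjusted p = 7.1e-12), below all other libraries. Of 9 tested Hox genes 3 rose and 2 fell, among them Hoxc5, from 47.6 and 43.96 to 88.8 and 102 (1.04 ± 0.17, adjusted p = 6.2e-06); 1 rose without untreated replicate 2. Numbered zinc-finger genes gave 81 of 329 higher and 38 lower, 52 and 66 at the same total, and 23 lower without untreated replicate 1 or mutated CTCF replicate 1.

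Some genes held a level with mutated CTCF that was found in none of the other groups, which the comparison with untreated cells alone does not show. In limma the mutated CTCF line differed in 1 direction from untreated, from the control line with IAA and from the wild-type CTCF line at 777 genes that were higher (4.91%) and 640 that were lower (4.05%). On the other scales these counts were 644 and 857, and 601 and 896; without mutated CTCF replicate 2, 461 were higher. The 5 named in each direction have the largest value of the smallest of their 3 absolute log2 differences, so genes such as Plxna4, lower against untreated, rank behind. The 3 contrasts share the mutated CTCF libraries. Vmn2r1, a vomeronasal receptor gene, had 66.9 and 66.4 normalized reads untreated, 52.4 and 48.4 in the control line with IAA, 27.98 and 36.4 with wild-type CTCF and 189 and 179 with mutated CTCF. It was higher than untreated by 1.45 ± 0.18 on the log2 scale (adjusted p = 1.91e-08). Tshz2, a zinc-finger homeobox gene, stood at 71.7 to 105 in the 6 other libraries and at 178 and 188 with mutated CTCF (1.22 ± 0.16, adjusted p = 5.77e-08). Trpc5os and Fstl4, which overlap another listed gene, and Gm960 were the other 3 highest, with 1.07 to 1.31. By this order Sv2c was first among the lower genes, at 250 or more in the 6 other libraries against 90.9 and 89.0. Fign, a microtubule-severing enzyme, had 99.5 and 115 untreated, 135 to 150 in the other IAA-treated libraries and 44.9 and 37.6 with mutated CTCF (-1.36 ± 0.15, adjusted p = 2.01e-09). Cdk14, 1700013H16Rik and Xlr, the last 2 on the X chromosome, were the other 3 of the 5 lower genes.

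Genes at least 2-fold lower, and genes lower than in all 3 other groups, were more frequent on the X chromosome than elsewhere. Of 544 tested X-linked genes 34 (6.25%) were at least 2-fold lower, against 295 of 15274 (1.93%) elsewhere, and 62 (11.4%) were lower than in all 3 other groups, against 578 (3.78%). For lower calls of any size the X chromosome was not alone. Such calls numbered 119 of the 544 X-linked genes and 174 of 780 genes on chromosome 6. On chromosome 6, 27 genes (3.46%) were at least 2-fold lower, and the median log2 fold change was -0.027. Among protein-coding genes with a mean of at least 50 normalized reads the shares at least 2-fold lower were 14 of 377 (3.71%) and 108 of 10409 (1.04%), and below that mean 16 of 95 (16.8%) and 138 of 2249 (6.14%). The median log2 fold change of all X-linked genes was 0.00 against 0.05 elsewhere; for protein-coding genes with a mean under 50 it was -0.475 against -0.06. Tenm1, a teneurin, had 928 and 942 untreated, 487 to 690 in the other IAA-treated libraries and 312 and 311 with mutated CTCF (-1.58 ± 0.07, adjusted p = 9.57e-21). Nhs, an actin regulator, stood at 205 and 208 untreated and 69.0 and 79.1 with mutated CTCF (-1.47 ± 0.13, adjusted p = 2.74e-12). Other low X-linked genes were Luzp4 (35.9 and 34.5 to 12.5 and 11.9), Pramel3 (51.8 and 44.8 to 20.9 and 22.7) and Xlr (45.1 and 59.5 to 23.0 and 16.8); copies of such gene families can share reads. In Pramel3 and Xlr the wild-type CTCF line lay above the untreated one, at 87.4 and 96.3 and at 73.4 and 87.7. These X-linked genes and the comparison between chromosomes were chosen after the values were seen, and no test was made.

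**Figure D5:**
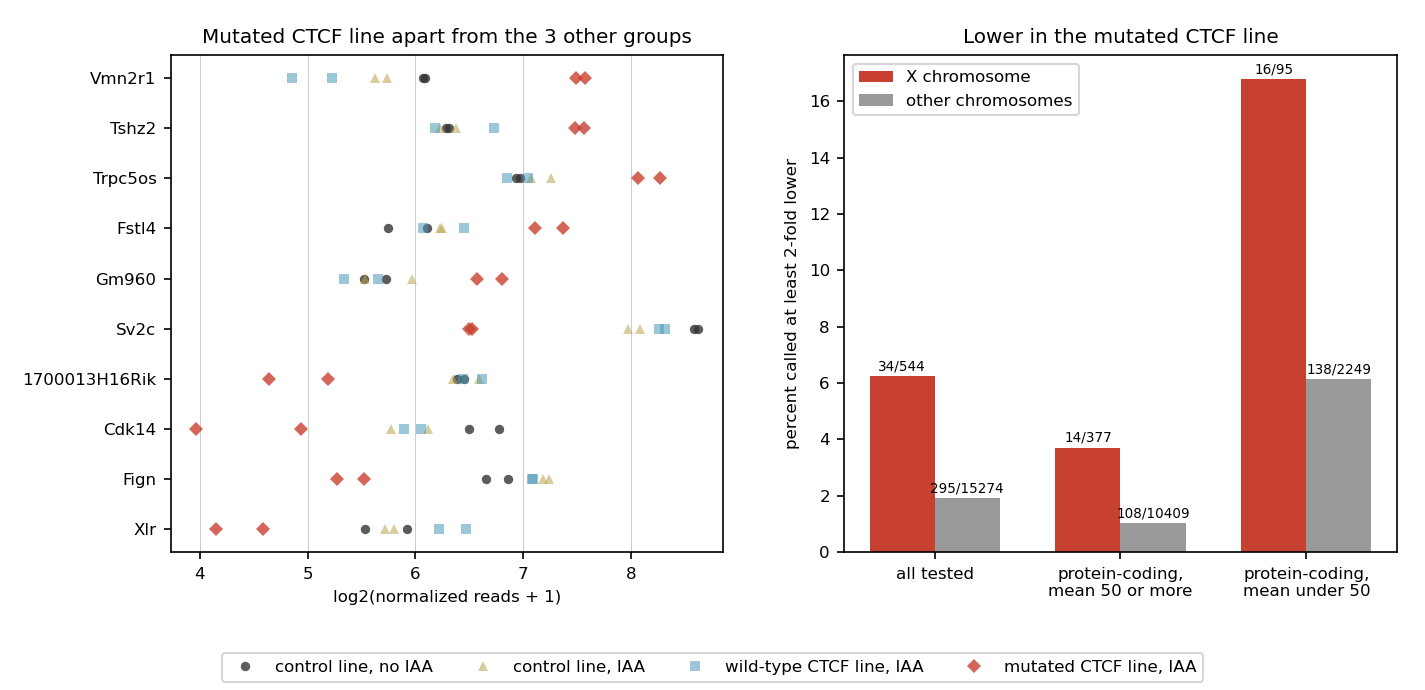
Left, log2 of normalized reads plus 1 in each of the 8 libraries for the 10 genes named as standing apart, where the 2 red diamonds of the mutated CTCF line overlap no other library. Right, percent of tested genes called at least 2-fold lower in the mutated CTCF line against untreated (vertical axis from 0, counts above the bars), for the X chromosome (6.25% of all tested) and the other chromosomes (1.93%), and for protein-coding genes by mean level.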

How the data were processed

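The authors deposited 1 table of normalized read counts (a signal of reads per gene divided by 1 factor per library) for 16940 genes and 8 TT-seq libraries. The submitters' processing notes name Trim Galore, STAR, featureCounts, DESeq2 and mm10, with no roles. From the values, 100% of entries were whole reads within 0.1 read after division by each library's step (0.836 to 1.19 normalized reads per read); 0 columns were of no sample. Positions are from GENCODE M21 on GRCm38, which held 16917 of the gene IDs; promoters are RefSeq's.

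Genes with a mean of at least 10 were tested with limma (3.58.1, R 4.3.3) on log2(value + 1), 1 coefficient per group over 8 libraries, empirical Bayes with trend, 4 residual degrees of freedom, 2-sided, Benjamini-Hochberg over 15818 genes. Fold changes understate those of low genes. A count test was an alternative because the deposited values are normalized: edgeR (4.0.16) and DESeq2 (1.42.0) ran on the recovered reads. The fits were tested on simulated data.

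Named genes are the 12 highest and 12 lowest calls with a mean of at least 50 and no overlap of libraries, 5 and 5 that stood apart likewise, and up to 3 and 3 calls per list, unless said otherwise. Members, lists and rules were chosen with earlier results of these data known, and the histone pattern was corrected after the data were seen. Some genes, the targeted one among them, are not reported here, so it was not used to check the labels. Replicates differed by more than counting error.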

Additional observations from a re-analysis of the deposited data

Results flagged for a closer look

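Vmn2r1 was above the untreated level with mutated CTCF and below it with wild-type CTCF, with both differences called in limma. The 2 lines differed by 2.49 on the log2 scale, the mutated CTCF line being higher (adjusted p = 2.56e-14, n = 2 libraries a group), and both libraries of 1 line lay above both of the other. Xlr did the reverse, with a difference of -1.98 between the mutated and the wild-type CTCF line (adjusted p = 2e-09). Both contrasts share the untreated libraries. Groups of 2 libraries were too small to look for single outlying samples.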

How the results depend on the processing

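The limma count of 5975 called genes ran from 4234 to 6249 when 1 library was left out (higher 2594 to 3974, lower 1412 to 2275; at least 2-fold higher 197 to 232, lower 274 to 378); a group left with 1 library is assumed to vary like the others. The 1417 genes that stood apart became 1047 to 1369 (higher 461 to 796, lower 474 to 626). DESeq2 on recovered reads called 3976 (1335 lower; at least 2-fold 140 higher and 219 lower; 840 apart, 491 higher and 349 lower). Without the mean-variance trend 3869 were called (2302 higher; 727 apart, 289 higher). At the same total 3421 were lower. At least 2-fold, 72 were higher and 129 lower with a minimum mean of 50, and 78 and 137 with a pseudocount of 10, which shrinks low genes by construction. The other causes were not tested. edgeR called 6199 genes. Same-numbered libraries did not deviate together (r = -0.0018 between the 2 groups, -0.0218 to 0.0282 over 6 pairs of groups), so the numbers do not pair them; the replicate block gave 6397 calls, and 6486 with the correction for GC content and length. In 21 settings none of 106 named genes changed sign where it was tested, 92 kept their call in each, and 48 of 2208 gene values missed the threshold. At these depths genes under 50 normalized reads rest on few reads.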
